A study of Mus musculus with 12 samples.

Results

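Choroid plexus epithelium was followed through 36 genes known for that epithelium and for the ciliated ependyma it adjoins, a list drawn up with earlier results of these data known. All 36 were in the deposited table of 57010 genes, and 35 of them were among the 19166 genes tested; Sostdc1 did not pass the filter on low counts. The choroid plexus is a vascular fold of the brain ventricles whose cuboidal epithelium secretes cerebrospinal fluid. Its cells move water, sodium, chloride, bicarbonate and potassium across their membranes, carry folate, thyroid hormone and other solutes between blood and fluid, and are sealed by tight junctions. The epithelium that lies next to the cerebellum comes from the roof of the hindbrain, where Lmx1a, Msx1 and Otx2 act in mouse development, and transthyretin is its best known product.

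The RNA came from mouse cerebellar crus 1, a lobule of the cerebellar hemisphere, and 12 libraries of 3 groups were compared, with 4 libraries in each. The first group held Fmr1 knockout mice given poly(I:C), a synthetic double-stranded RNA that stands in for a viral infection, by intraperitoneal injection. The second held Fmr1 knockout mice labelled as saline-treated, called sham in their titles, and the third FVB mice, also labelled as saline-treated and described as the background strain. Fmr1 codes for the RNA-binding protein that is lost in fragile X syndrome. No FVB group with poly(I:C) was analysed here, so an effect of poly(I:C) without the knockout could not be separated. The sources used here do not give the age and sex of the mice, the dose, the time of dissection or the form of the Fmr1 allele. The labels also do not say that each library came from a separate animal, so p-values measure the spread between libraries.

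Libraries held 39352860 to 56390207 counts in the poly(I:C) knockout group, 38723699 to 50248411 counts in the saline knockout group and 35155420 to 48717119 counts in the FVB group. Levels are given as CPM, the counts of a gene scaled to the TMM-adjusted library total. Fmr1 itself had 33.9 to 35.97 CPM in poly(I:C) knockout libraries and 27.9 to 36.7 CPM in saline knockout libraries, against 85.5 to 108 CPM in FVB libraries, so every knockout library kept Fmr1 counts and lay under every FVB library (saline knockout against FVB: edgeR adjusted p 8.74e-09). Neurons and glia of the cerebellum were well represented in all 12: the 14 marker genes of that list summed to 13349 to 15429.9 CPM, among them Car8, a Purkinje cell gene, and Mbp of myelin. Since tissue was measured in bulk, fewer epithelial cells and less RNA per cell cannot be told apart.

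Promoter windows are shown for 4 of the genes because they hold short motifs of regulators named below: OTX2, which binds TAATCC, and the RFX factors that act with FOXJ1 in ciliated cells and bind GTTGCC as a half-site. Windows were taken from RefSeq on GRCm38.p6, with 250 bases before and 50 after each start, printed on the gene's own strand, 5′ to 3′, with the motif or its reverse complement in capitals. The counts were made on GRCm39, so these coordinates do not apply to the count table. Of the 36 genes 28 had a window, 42 windows in all. TAATCC or GGATTA occurred in 5 of these 42 windows, from 5 genes, and in 7.06% of all 32851 windows of the same length. GTTGCC or GGCAAC occurred in 6 of the 42 windows, from 5 genes, and in 12.5% of all windows. None of the 4 windows shown held both motifs. A match is a description of the sequence and not of binding.
Abca4, chr3:122044210-122044509, plus strand: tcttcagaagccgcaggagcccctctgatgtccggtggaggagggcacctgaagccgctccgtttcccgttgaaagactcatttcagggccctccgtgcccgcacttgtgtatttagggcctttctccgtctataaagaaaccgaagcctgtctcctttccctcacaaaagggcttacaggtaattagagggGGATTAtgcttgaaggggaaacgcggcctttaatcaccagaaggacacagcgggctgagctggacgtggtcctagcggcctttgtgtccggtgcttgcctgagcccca
Rbm47, chr5:66151905-66152204, minus strand: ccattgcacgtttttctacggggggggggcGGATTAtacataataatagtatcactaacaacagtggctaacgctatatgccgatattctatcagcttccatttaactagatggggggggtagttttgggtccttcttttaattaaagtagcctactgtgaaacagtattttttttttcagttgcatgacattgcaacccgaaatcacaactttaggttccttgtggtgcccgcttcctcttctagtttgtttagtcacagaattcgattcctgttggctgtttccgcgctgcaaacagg
Aqp1, chr6:55336049-55336348, plus strand: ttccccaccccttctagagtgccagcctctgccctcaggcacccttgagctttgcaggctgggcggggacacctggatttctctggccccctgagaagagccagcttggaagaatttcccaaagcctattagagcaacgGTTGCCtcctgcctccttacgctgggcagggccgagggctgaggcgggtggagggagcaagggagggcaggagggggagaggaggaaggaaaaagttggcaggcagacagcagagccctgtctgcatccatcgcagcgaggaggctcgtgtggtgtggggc
Kcne2, chr16:92292139-92292438, plus strand: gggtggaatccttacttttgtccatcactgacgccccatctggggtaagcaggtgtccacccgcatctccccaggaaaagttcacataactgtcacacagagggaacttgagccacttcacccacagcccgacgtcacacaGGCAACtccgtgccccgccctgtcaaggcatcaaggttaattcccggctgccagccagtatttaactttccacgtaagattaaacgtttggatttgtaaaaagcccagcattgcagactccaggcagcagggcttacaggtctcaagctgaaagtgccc

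High levels of these genes were found in 3 libraries, 2 of the poly(I:C) knockout group and 1 of the saline knockout group, and not in the other libraries of those groups. Transthyretin (Ttr), the carrier of thyroxine in cerebrospinal fluid, had 1.63, 2167, 2631 and 12.0 CPM in poly(I:C) knockout libraries 1 to 4, 7.64, 4156, 24.96 and 12.4 CPM in saline knockout libraries 1 to 4 and 65.3, 23.6, 7.97 and 12.1 CPM in FVB libraries 1 to 4. Poly(I:C) knockout libraries 2 and 3 and saline knockout library 2 stood at 2167 CPM or more, the other 9 lay at 65.3 CPM or less, and the 3 groups overlapped. Means were 1203 ± 1394 CPM in poly(I:C) knockout libraries, 1050.3 ± 2071 CPM in saline knockout libraries and 27.2 ± 26.2 CPM in FVB libraries (SD, n = 4 each). The SD was above the mean in both knockout groups. Below, the 3 high libraries are poly(I:C) knockout libraries 2 and 3 and saline knockout library 2, with values in that order, and the 9 low libraries are the others, given as a range.

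Of the 36 genes 33 had the same 3 libraries highest as Ttr, while 1.72% of all 19166 tested genes (330 genes) did. Ttr set these 3 libraries and is itself counted among the 33, where its match is fixed. The lowest of these 3 libraries was at least 2 times the highest of the other 9 for 24 of the 36 genes, against 0.25% of tested genes. Since the list was chosen with such results in view, these shares describe it and test nothing. In all, 48 tested genes met that condition, and 23 of them were on the list (Sostdc1, the 24th, was not tested). The 36 genes together took 0.416% and 0.458% of all counts in poly(I:C) knockout libraries 2 and 3 and 0.693% in saline knockout library 2, and 0.0317% to 0.0510% in the other 9. Without Ttr the genes summed to 1929.5, 1906 and 2721 CPM in these 3 libraries and to 309 to 444 CPM in the other 9. The gap was at least 10 times for 8 genes: Ttr (33.2), Sostdc1 (29.9), Kcne2 (28.9), Folr1 (28.4), Tmem72 (23.5), Prlr (17.1), Kl (13.2) and Aqp1 (12.2). At the other end Igfbp2, with a gap of 2.10 times, lay just inside the 2-fold mark and Msx1, at 1.95 times, just outside it.

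**Figure D1:**
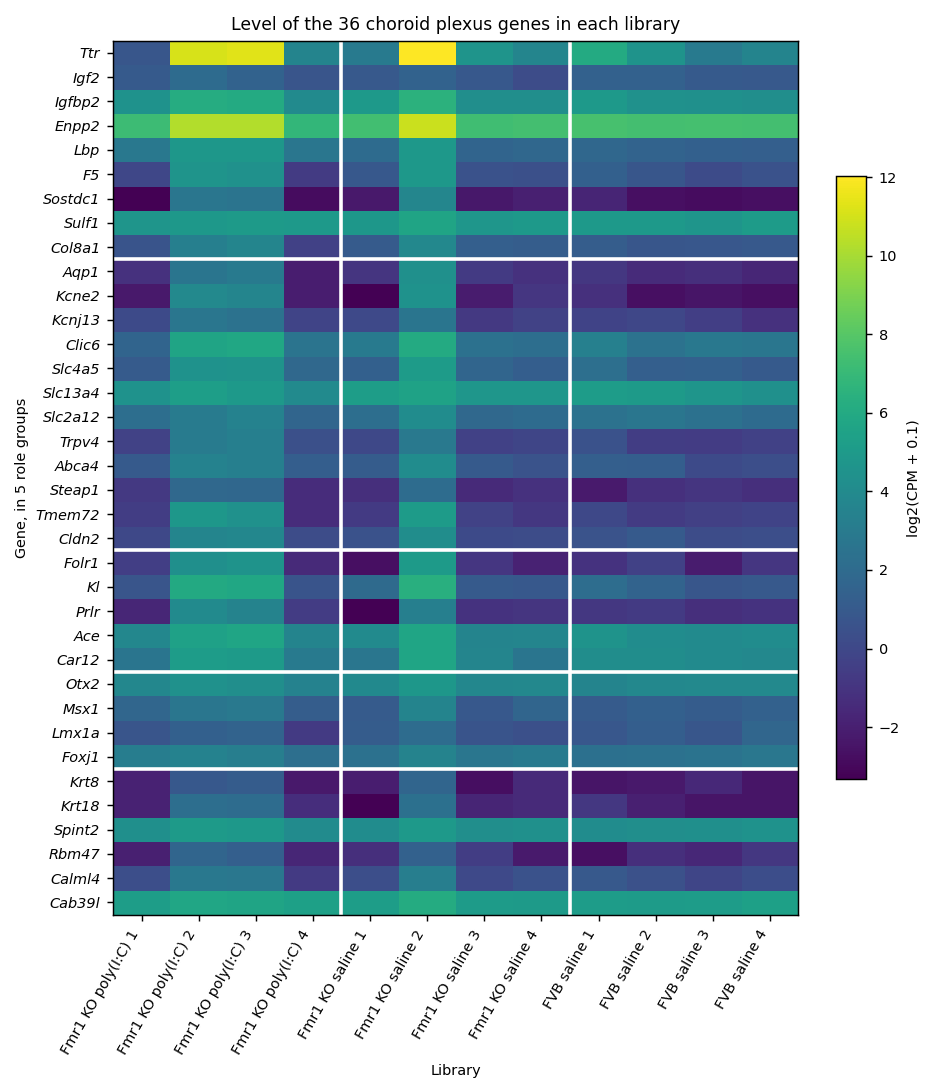
Each row is a gene and each column a library, coloured by log2(CPM + 0.1), with white lines between the 3 groups and the 5 role groups. Poly(I:C) knockout libraries 2 and 3 and saline knockout library 2 form 3 bright columns, and Sulf1, Slc13a4 and the transcription factors are among the rows where they stand out least.

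Of the 9 secreted and extracellular products 8 had the same top 3 libraries as Ttr and 7 passed the 2-fold gap. Ttr is one of the 9 and is counted in both numbers, and its match with itself is fixed. Enpp2 codes for autotaxin, the secreted enzyme that makes lysophosphatidic acid, and is also made by oligodendrocytes. It had 146, 1224, 1221 and 117 CPM in poly(I:C) knockout libraries 1 to 4, 164, 1792, 157 and 169.5 CPM in saline knockout libraries and 185, 172, 179.9 and 171 CPM in FVB libraries. The same 3 libraries were at 1221 CPM or more, and the other 9 held 117 to 185 CPM, with Enpp2 present also where Ttr was lowest. Igfbp2, a binding protein of insulin-like growth factors, had 71.4, 67.3 and 91.5 CPM in the 3 high libraries, against 16.4 to 32.0 CPM in the 9 low libraries. F5, coagulation factor V, had 24.2, 21.2 and 28.5 CPM in the 3 high libraries, against 0.542 to 2.502 CPM in the 9 low libraries, and Col8a1, a short-chain collagen, had 9.96, 12.5 and 14.4 CPM in the 3 high libraries, against 0.673 to 2.36 CPM in the 9 low libraries.

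Sostdc1, a secreted antagonist of BMP and Wnt signalling, had 303, 236 and 524 counts in poly(I:C) knockout libraries 2 and 3 and saline knockout library 2, and 0 to 8 counts in each of the other 9. Only 3 libraries reached the count the filter asked of 4, which is why it was not tested. Igf2, a fetal growth factor that the choroid plexus and meninges go on making in adult rodents, was low throughout: 1.91, 3.94, 2.75 and 1.56 CPM in poly(I:C) knockout libraries, 1.85, 2.70, 1.74 and 1.08 CPM in saline knockout libraries and 2.59, 2.62, 1.95 and 1.83 CPM in FVB libraries. Its 3 highest libraries were those of Ttr, but by 1.03 times over the next. Sulf1, an enzyme that trims sulfate from heparan sulfate, did not share the top 3 libraries of Ttr, with 25.4, 28.8, 33.4 and 31.9 CPM in poly(I:C) knockout libraries, 27.4, 50.6, 26.3 and 32.0 CPM in saline knockout libraries and 31.7, 31.7, 25.7 and 34.9 CPM in FVB libraries. Saline knockout library 2 was its highest, and the 2 high poly(I:C) libraries lay among the rest.

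Of the 12 genes of fluid secretion and transport 11 had the same top 3 libraries as Ttr and 10 passed the 2-fold gap. Aqp1, the apical water channel, had 0.354, 6.23, 7.73 and 0.130 CPM in poly(I:C) knockout libraries, 0.417, 20.3, 0.513 and 0.354 CPM in saline knockout libraries and 0.455, 0.265, 0.324 and 0.219 CPM in FVB libraries. Kcne2, a potassium channel subunit, had 0.106, 15.1, 12.5 and 0.130 CPM in poly(I:C) knockout, 0, 22.4, 0.128 and 0.432 CPM in saline knockout and 0.341, 0.0530, 0.0811 and 0.0546 CPM in FVB libraries. Both stayed at or under 0.513 CPM in 9 libraries and reached 6.23 CPM or more in 3, and the groups overlapped. Cldn2, the claudin that forms a pore for cations and water in leaky epithelia, had 12.5, 13.7 and 18.5 CPM in the 3 high libraries, against 0.904 to 1.96 CPM in the 9 low libraries.

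Other channels and carriers were high in the same libraries. Clic6, a chloride channel family protein, had 50.7, 56.3 and 66.3 CPM in the 3 high libraries, against 3.03 to 10.4 CPM in the 9 low libraries. Slc4a5, a sodium bicarbonate cotransporter, had 22.1, 23.9 and 34.4 CPM in the 3 high libraries, against 1.91 to 4.66 CPM in the 9 low libraries, and Kcnj13, an inward rectifier potassium channel, had 6.51, 5.39 and 6.20 CPM in the 3 high libraries, against 0.355 to 0.992 CPM in the 9 low libraries. Tmem72, a transmembrane protein, had 28.2, 21.4 and 33.8 CPM in the 3 high libraries, against 0.282 to 0.910 CPM in the 9 low libraries. For these 4 genes none of the 9 libraries came near the 3. Trpv4, a calcium-permeable channel that responds to osmotic and mechanical stimuli, had 8.18, 9.70 and 7.23 CPM in the 3 high libraries, against 0.568 to 1.34 CPM in the 9 low libraries. Abca4, a retinoid transporter best known from photoreceptors, had 10.9, 9.75 and 17.2 CPM in the 3 high libraries, against 0.994 to 2.39 CPM in the 9 low libraries, and Steap1, of a family of metal-reducing membrane proteins, had 3.51, 3.38 and 4.21 CPM in the 3 high libraries, against 0.114 to 0.496 CPM in the 9 low libraries. Trpv4 was the one of the 3 that was highest in a poly(I:C) library rather than in saline knockout library 2. The 2 transporters with small gaps were Slc2a12, a glucose transporter, with 8.18, 11.2 and 17.2 CPM in the 3 high libraries, against 3.15 to 6.44 CPM in the 9 low libraries, and Slc13a4, a sulfate transporter also found in meninges. Slc13a4 had 22.9, 38.1, 30.0 and 15.9 CPM in poly(I:C) knockout libraries, 36.4, 45.9, 26.2 and 26.5 CPM in saline knockout libraries and 35.9, 32.8, 25.4 and 20.7 CPM in FVB libraries, so that saline knockout library 1 exceeded poly(I:C) knockout library 3 and the groups overlapped.

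All 5 receptors and surface enzymes had the same top 3 libraries as Ttr, and 3 passed the 2-fold gap. Folr1, the folate receptor that carries folate into cerebrospinal fluid, had 0.620, 19.5, 23.2 and 0.260 CPM in poly(I:C) knockout libraries, 0.0521, 32.9, 0.436 and 0.177 CPM in saline knockout libraries and 0.370, 0.689, 0.122 and 0.437 CPM in FVB libraries. Kl, which codes for Klotho, the co-receptor of FGF23, had 1.52, 63.8, 57.5 and 1.48 CPM in poly(I:C) knockout, 3.86, 81.8, 1.92 and 1.79 CPM in saline knockout and 4.35, 2.91, 1.62 and 1.86 CPM in FVB libraries. Both were low in the same 9 libraries and high in the same 3. Prlr, the prolactin receptor, had 0.213, 16.1, 11.5 and 0.564 CPM in poly(I:C) knockout libraries, 0, 9.65, 0.384 and 0.413 CPM in saline knockout libraries and 0.455, 0.503, 0.324 and 0.382 CPM in FVB libraries, and of the 3 high libraries it was lowest in saline knockout library 2, where Ttr was highest. Ace, the angiotensin-converting enzyme, had 43.1, 52.1 and 52.1 CPM in the 3 high libraries, against 11.9 to 23.9 CPM in the 9 low libraries. Car12, a carbonic anhydrase on the cell surface, had 6.06, 35.3, 32.2 and 7.57 CPM in poly(I:C) knockout libraries, 6.44, 52.2, 12.8 and 6.11 CPM in saline knockout libraries and 18.2, 18.3, 16.0 and 14.3 CPM in FVB libraries. Its FVB values lay between the 3 high libraries and the low knockout libraries.

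No transcription factor reached the 2-fold gap. Otx2, which is needed to form the mouse choroid plexus and is also used by cerebellar granule cell precursors, had 13.6, 21.6, 19.0 and 11.2 CPM in poly(I:C) knockout libraries, 15.7, 27.2, 13.7 and 13.9 CPM in saline knockout libraries and 11.8, 14.4, 14.8 and 14.6 CPM in FVB libraries. Its 3 high libraries exceeded the next by 1.21 times. Msx1, a roof plate factor, had 6.36, 7.28 and 11.8 CPM in the 3 high libraries, against 1.77 to 3.26 CPM in the 9 low libraries. Foxj1, the master regulator of motile cilia, had 9.09, 11.0, 9.52 and 4.80 CPM in poly(I:C) knockout libraries, 5.21, 11.5, 6.38 and 8.00 CPM in saline knockout libraries and 5.00, 5.17, 5.54 and 6.69 CPM in FVB libraries. Poly(I:C) knockout library 1, at 9.09 CPM, was close below the 3. Lmx1a, a roof plate factor also kept by unipolar brush cells, had 1.54, 2.51, 2.87 and 0.521 CPM in poly(I:C) knockout libraries, 2.11, 4.16, 1.49 and 1.22 CPM in saline knockout libraries and 1.68, 2.31, 1.60 and 3.196 CPM in FVB libraries, and did not share the top 3.

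Epithelial and intracellular genes were split. The simple-epithelium keratins Krt8 and Krt18, little used by neurons and glia, marked the same libraries. Krt8 had 1.80, 2.07 and 3.15 CPM in the 3 high libraries, against 0.0513 to 0.255 CPM in the 9 low libraries. Krt18 had 4.65, 4.21 and 4.89 CPM in the 3 high libraries, against 0 to 0.455 CPM in the 9 low libraries. Rbm47, an RNA-binding protein of epithelia, had 3.17, 2.39 and 2.62 CPM in the 3 high libraries, against 0.0569 to 0.590 CPM in the 9 low libraries, and Calml4, a calmodulin-like protein, had 7.05, 6.62 and 9.32 CPM in the 3 high libraries, against 0.521 to 1.82 CPM in the 9 low libraries. These 4 were past the 2-fold gap. Spint2, an inhibitor of serine proteases, had 32.8, 29.4 and 31.4 CPM in the 3 high libraries, against 16.97 to 22.4 CPM in the 9 low libraries, and Cab39l, a partner of the kinase LKB1, had 54.8, 48.9 and 70.3 CPM in the 3 high libraries, against 32.8 to 42.5 CPM in the 9 low libraries. For both, the lowest of the 3 libraries exceeded the highest of the 9 by under 1.5 times.

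Per kilobase of exon, which allows genes to be compared, Ttr was far above the rest, at 1827, 2219 and 3504 CPM per kb in poly(I:C) knockout libraries 2 and 3 and saline knockout library 2. Enpp2 followed at 212, 211 and 310.1 CPM per kb and Igfbp2 at 38.6, 36.5 and 49.5 CPM per kb. Clic6 had 12.9, 14.4 and 16.9 CPM per kb, Folr1 8.51, 10.1 and 14.3 CPM per kb and Kcne2 8.56, 7.07 and 12.7 CPM per kb. The lowest was Rbm47, at 0.443, 0.334 and 0.366 CPM per kb. Exon lengths came from an annotation of another build, so these levels are approximate.

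Among the other 9 libraries Ttr ran between 1.63 CPM in poly(I:C) knockout library 1 and 65.3 CPM in FVB library 1. FVB library 1 was also the highest of the 9 for 12 of the other 35 genes. Poly(I:C) knockout library 4 was the lowest of the 9 for 15 of these 35. The sum of the 36 genes lay between 321 and 509.6 CPM over the 9 libraries, and Enpp2 gave the largest part of it.

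Relative to Ttr, the 3 high libraries held the genes in similar but not equal proportion. Over 35 genes, the highest ratio to Ttr among the 3 libraries exceeded the lowest by a median of 1.496 times (1.06 to 3.198), and for 29 genes by under 2 times. Folr1 stayed close to Ttr, at 9.02, 8.83 and 7.91 CPM per 1000 CPM of Ttr in poly(I:C) knockout libraries 2 and 3 and saline knockout library 2. Enpp2 had 565, 464 and 431 CPM per 1000 CPM of Ttr. Prlr departed most, with 7.42, 4.37 and 2.32 CPM per 1000 CPM of Ttr, and Trpv4 had 3.78, 3.69 and 1.74. Lbp, the lipopolysaccharide-binding protein of the acute phase, had 12.6, 10.7 and 7.06 CPM per 1000 CPM of Ttr. In the opposite direction Aqp1 had 2.88, 2.94 and 4.89 CPM per 1000 CPM of Ttr. Against Ttr, 28 of 35 ratios were higher in both poly(I:C) libraries than in the saline library and 2 were lower in both; against Folr1 in place of Ttr, a denominator chosen after seeing the data, these counts were 17 and 7 of 35. Ttr and Folr1 were both highest in saline knockout library 2, at 4156 and 32.9 CPM. A gene with a level of its own in the 9 low libraries, such as Cab39l at 32.8 to 42.5 CPM, then has a lower ratio in that library by arithmetic. This level was not subtracted, so the counts do not show a shift within the epithelium. Since 2 libraries face 1, no test was made.

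**Figure D2:**
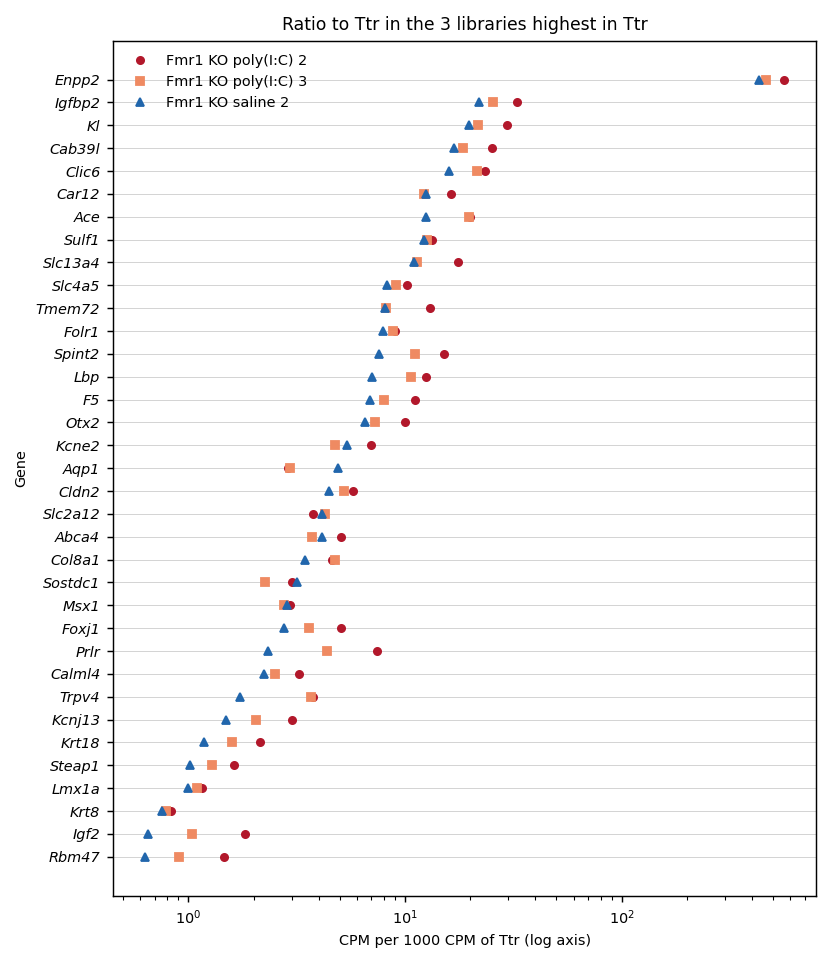
Points give each gene's CPM per 1000 CPM of Ttr, on a log axis, in poly(I:C) knockout libraries 2 and 3 and saline knockout library 2. Most genes fall within a 2-fold span; Prlr spans 3.198 times and Aqp1 is lower in both poly(I:C) libraries.

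Poly(I:C) knockout and saline knockout libraries were compared first. By edgeR's quasi-likelihood test, with adjustment after Benjamini and Hochberg over 19166 genes, 0 of 35 were called, and none was at an unadjusted p under 0.05, while 2.87% of all tested genes were called. DESeq2 and limma-voom also called 0, with none at an unadjusted p under 0.05. Over all genes DESeq2 called 973 of 57010 (1.71%) and limma-voom 572 of 19166 (2.98%). DESeq2 was run on every gene of the table, without the low-count filter. Its shares are therefore not comparable with those over 19166 genes. The median log2 fold change of the 35 was 0.26, beside -0.0017 over all tested genes, and 29 were above 0. For Ttr the log2 fold change was 0.20 with an SE of 2.24, from 2 high libraries against 1. Leaving out saline knockout library 2 alone took the median to 2.14 and put 22 genes at an unadjusted p under 0.05, with 0 called by edgeR, beside 2.09% of all tested genes. Leaving out poly(I:C) knockout library 2 or 3 took the median to -0.13.

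Saline knockout and FVB libraries were compared next, and edgeR again called 0 of the 35 genes, with 0 at an unadjusted p under 0.05, beside 1.53% of all genes. DESeq2 and limma-voom called 0, beside 624 of 57010 genes (1.09%) and 225 of 19166 genes (1.17%). At an unadjusted p under 0.05 DESeq2 had 12 of the genes, limma-voom 0 and a non-robust edgeR fit 10. The median log2 fold change was 1.69, beside 0.0033 over all tested genes, and 34 of 35 were above 0. This level rested on saline knockout library 2: without it the median was -0.085. For Kcne2 the log2 fold change was 5.46 (SE 2.55) and the adjusted p 0.450 by edgeR.

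Between poly(I:C) knockout and FVB libraries edgeR called 0 of 35 genes, with 5 at an unadjusted p under 0.05, beside 7.05% of all genes. The median log2 fold change was 1.98, beside 0.0010 over all tested genes, and 32 were above 0. DESeq2 called 4, Ttr, Lbp, Kcne2 and Folr1, all higher in the poly(I:C) knockout group. Over all genes it called 1905 of 57010 (3.34%), which include genes that the low-count filter would drop, where edgeR called 1352 of 19166. Limma-voom called 0, beside 6.42% of 19166 genes. The number at an unadjusted p under 0.05 turned on the setting. It was 20 with DESeq2, 22 with a non-robust edgeR fit and 2 with limma-voom. Leaving out poly(I:C) knockout libraries 1 to 4 in turn gave 12, 1, 1 and 14 by edgeR. Leaving out saline knockout libraries 1 to 4 gave 7, 22, 5 and 4, and FVB libraries 1 to 4 gave 1, 1, 1 and 2. The lowest adjusted p by edgeR was that of Lbp, 0.129, at a log2 fold change of 2.62 (SE 0.90). EdgeR called Lbp when saline knockout library 2 was left out (2.63, adjusted p 0.0242) and Foxj1 when poly(I:C) knockout library 4 was left out (0.82, adjusted p 0.0293), beside 6.53% and 5.14% of all tested genes. The saline knockout and FVB libraries each enter 2 of the 3 comparisons, and the poly(I:C) libraries do too, so the comparisons are not independent.

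**Figure D3:**
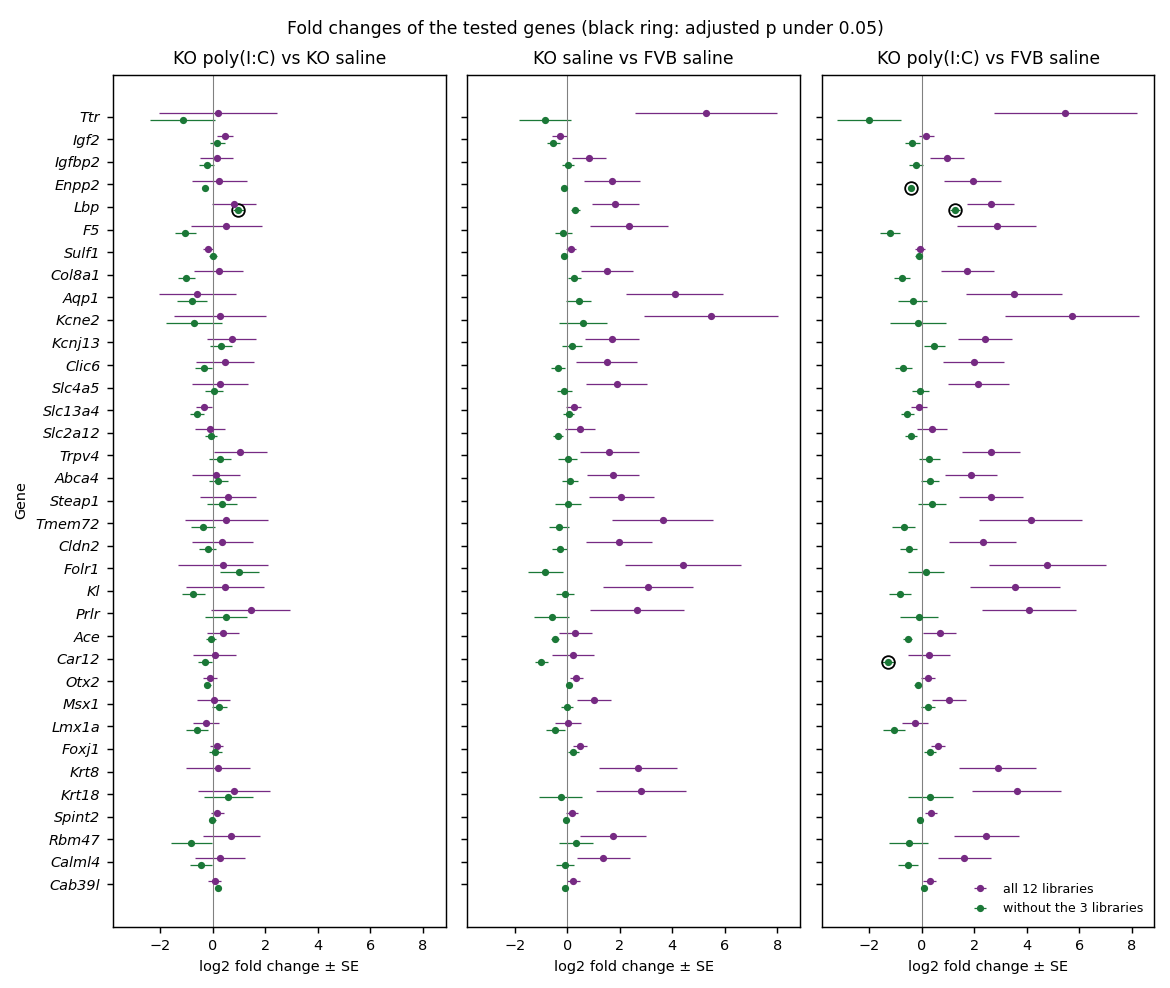
Log2 fold changes (points) with their SE (bars) are drawn for the tested genes in the 3 comparisons, from all 12 libraries and without the 3 libraries highest in Ttr. With all 12 the bars are wide and lie mostly right of 0 in the comparisons with FVB; without the 3 the points gather near 0, and Lbp, Enpp2 and Car12 carry rings.

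Leaving out poly(I:C) knockout libraries 2 and 3 and saline knockout library 2, a setting chosen after seeing the data, left 2, 3 and 4 libraries in the poly(I:C) knockout, saline knockout and FVB groups. Then 34 genes were tested, since Krt8 and Sostdc1 fell under the filter, and the median log2 fold changes were -0.14, -0.098 and -0.29 in the comparisons of poly(I:C) with saline knockout, saline knockout with FVB and poly(I:C) knockout with FVB. EdgeR called 1 gene, 0 genes and 3 genes in them, beside 1.09%, 1.16% and 2.81% of 19814 genes. In the comparison with 0 calls, 2 genes were at an unadjusted p under 0.05, and DESeq2 and limma-voom were not run on these 9 libraries. The 3 genes called were Lbp, Enpp2 and Car12.

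Lbp had 7.09, 27.2, 28.2 and 6.31 CPM in poly(I:C) knockout libraries 1 to 4, 3.96, 29.3, 3.02 and 3.34 CPM in saline knockout libraries 1 to 4 and 3.36, 2.81, 2.56 and 2.43 CPM in FVB libraries 1 to 4. Besides the 3 high libraries, poly(I:C) knockout libraries 1 and 4 lay above every FVB library and every saline knockout library but library 2. In the 9 libraries Lbp rose by 0.96 on the log2 scale (SE 0.21) in poly(I:C) against saline knockout, with an adjusted p of 0.0271, and by 1.27 (SE 0.19) in poly(I:C) knockout against FVB, with an adjusted p of 0.000792, both by edgeR. For saline knockout against FVB the log2 fold change was 0.31 (SE 0.18) and the adjusted p 0.642 in the same test. These results rest on 2 poly(I:C) knockout libraries, against 3 saline knockout and 4 FVB libraries.

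Car12 gave the opposite picture in the 9 libraries, where the 5 knockout values, 6.06 to 12.8 CPM, lay under all 4 FVB values, 14.3 to 18.3 CPM. It fell by 1.29 on the log2 scale (SE 0.27) in poly(I:C) knockout against FVB, with an edgeR adjusted p of 0.0264. Saline knockout against FVB gave a log2 fold change of -0.99 (SE 0.23) and an edgeR adjusted p of 0.0839, which did not pass. With all 12 libraries the log2 fold changes of Car12 against FVB were 0.28 and 0.21 for poly(I:C) and saline knockout, so their direction turned with the 3 libraries. Enpp2 fell by 0.43 (SE 0.09) in poly(I:C) knockout against FVB, with an edgeR adjusted p of 0.0135, where the all-library value was 1.93 (SE 1.07). Its values in poly(I:C) knockout libraries 1 and 4, 146 and 117 CPM, were under those of the other 7 libraries.

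With all 12 libraries and log2(Ttr CPM + 0.5) as a covariate, edgeR called 0, 0 and 3 of 34 genes in the comparisons in the same order, beside 2.74%, 1.5% and 5.24% of all genes, with 3 and 4 genes at an unadjusted p under 0.05 in the comparisons with 0 calls. DESeq2 and limma-voom were not run with this covariate. In poly(I:C) knockout against FVB, Lbp rose by 1.66 (SE 0.29; edgeR adjusted p 0.00575), Trpv4 rose by 1.02 (SE 0.23; edgeR adjusted p 0.0121) and Car12 fell by 0.84 (SE 0.19; edgeR adjusted p 0.0228). Lbp and Car12 were thus called in both settings, and Enpp2 and Trpv4 in one each. The settings share libraries and both are built on Ttr, so they are not independent. The covariate fit takes each gene's log level to follow log2 Ttr linearly, and a gene's own level in the low libraries was not subtracted. Trpv4 had 0.709, 8.18, 9.70 and 1.22 CPM in poly(I:C) knockout libraries, 0.886, 7.23, 0.692 and 0.806 CPM in saline knockout libraries and 1.34, 0.583, 0.568 and 0.683 CPM in FVB libraries. Its difference lay in poly(I:C) knockout libraries 2 and 3, and without the 3 libraries its log2 fold change was 0.28 (SE 0.40).

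**Figure D4:**
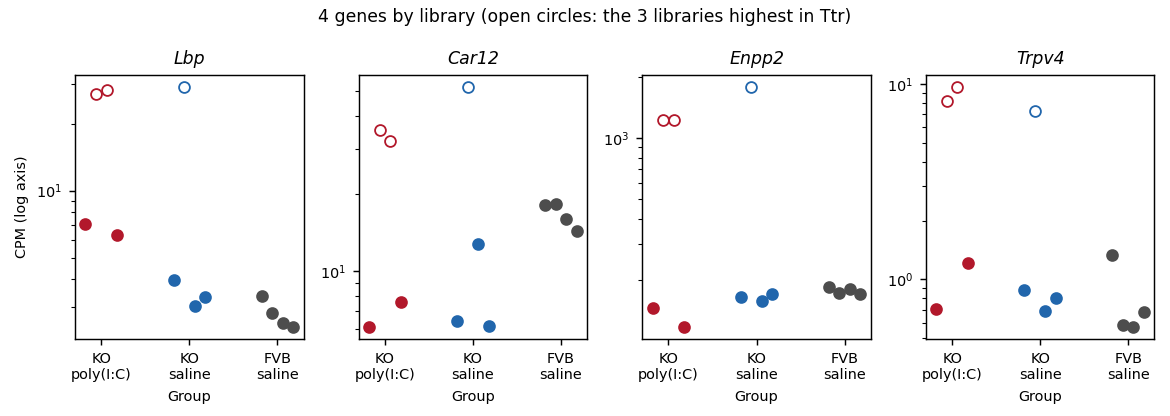
CPM of Lbp, Car12, Enpp2 and Trpv4 on log axes, with a point for each library and open circles for the 3 libraries highest in Ttr. Among filled points, both poly(I:C) knockout libraries are highest for Lbp (7.09 and 6.31 CPM) and lowest for Enpp2 (146 and 117 CPM), and all FVB libraries are highest for Car12.

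A second list of 42 other choroid plexus epithelium genes behaved alike in part. Of 41 tested, 18 had the 3 libraries of Ttr highest and 7 passed the 2-fold gap, beside 1.72% and 0.25% of all tested genes. The 4 with the highest mean, Atp1b1, a subunit of the sodium pump, Trpm3, a cation channel, Slc4a10, a bicarbonate transporter, and Car2, a carbonic anhydrase, are also made by other brain cells and showed no such gap: Atp1b1 had 1577, 1531, 1400.2 and 1499 CPM in poly(I:C) knockout libraries, 1639, 1597, 1593 and 1545 CPM in saline knockout libraries and 1548, 1632, 1485 and 1634 CPM in FVB libraries. The 7 past the gap, named after their values were seen, were Cldn1, Ecrg4, Wdr86, Wfdc2, Htr2c, Slc16a8 and Cdh3. Htr2c, the serotonin 2C receptor, had 14.4, 11.9 and 41.2 CPM in the 3 high libraries, against 2.52 to 4.64 CPM in the 9 low libraries. Cldn1, a tight junction protein, had 5.27, 6.67 and 9.78 CPM in the 3 high libraries, against 0.0651 to 0.626 CPM in the 9 low libraries. In this list edgeR called 1 gene up and 1 down of 41 in poly(I:C) knockout against FVB, beside 7.05% of all tested genes. The list thus held no larger share of calls than tested genes in general. Stra6, a receptor for retinol-binding protein, rose by 1.29 (SE 0.28; edgeR adjusted p 0.0112), with 4.77, 5.87, 11.1 and 7.66 CPM in poly(I:C) knockout libraries, 4.61, 9.83, 5.90 and 4.78 CPM in saline knockout libraries and 2.59, 3.68, 2.84 and 2.84 CPM in FVB libraries. All 4 poly(I:C) values and all 4 saline knockout values were above all 4 FVB values. In saline knockout against FVB its log2 fold change was 1.07 (SE 0.28; edgeR adjusted p 0.0802), which did not pass, and in poly(I:C) against saline knockout it was 0.23 (SE 0.27; edgeR adjusted p 0.758). In poly(I:C) knockout against FVB without the 3 libraries Stra6 rose by 1.05 (SE 0.22; edgeR adjusted p 0.0109). Epn3, an adaptor of endocytosis, fell by 0.44 (SE 0.12; edgeR adjusted p 0.0392).

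The 48 genes past the 2-fold gap held 23 genes of the main list, 8 of the other lists and 17 of none, of which 16 had a symbol. Named after their values were seen, these included Mfrp, a membrane protein of the retinal pigment epithelium, with 16.2, 15.9 and 17.7 CPM in poly(I:C) knockout libraries 2 and 3 and saline knockout library 2, against at most 0.512 CPM in the other 9. Dlk1, a Notch-related growth factor, had 2.51, 6.83 and 11.5 CPM against at most 0.530 CPM. Col8a2, the partner chain of Col8a1, had 9.58, 10.5 and 18.6 CPM against at most 4.30 CPM.

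Genes of meninges, choroid plexus stroma and cerebellar cells lay near the rest of their groups in the 3 libraries. Of 29 tested motile cilia genes, 7 had the 3 libraries of Ttr highest and the others did not. Each gene's CPM in a high library was divided by the median of the lower libraries of its group, in poly(I:C) knockout libraries 2 and 3 and saline knockout library 2. The median of this ratio was 8.25, 8.66 and 8.78 for the 35 tested genes, and 1.32, 1.30 and 1.40 for the other choroid plexus genes. Motile cilia and ependyma genes, such as Tppp3, Dnah11, Dnah6 and Rarres2, gave 1.17, 1.12 and 1.53, with 7 of 29 sharing the top 3 libraries of Ttr, beside 1.72% of all tested genes, and 1 past the 2-fold gap, Gmnc, beside 0.25%. Meninges and fibroblast genes, such as Col1a2, Slc13a3, Fmod and Dcn, gave 1.14, 0.996 and 1.04. Genes of choroid plexus stroma, fenestrated vessels and border macrophages, such as Plvap, Nr2f2, Stab1 and Mrc1, gave 1.10, 1.15 and 0.978. Cerebellar neuron and glia genes gave 0.943, 0.948 and 0.924, and all tested genes 0.996, 0.997 and 1.00. In the meninges, stroma and cerebellar lists 0 genes shared the top 3 libraries of Ttr. Summed over its tested genes, the stroma, vessel and macrophage list held 64.2 to 76.3 CPM in the 3 libraries and 61.7 to 82.4 CPM in the other 9, and the meninges list 347 to 418 CPM and 301 to 462 CPM. The motile cilia list held 175 to 204 CPM in the 3 libraries and 137 to 187 CPM in the other 9, so these ranges overlapped too.

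**Figure D5:**
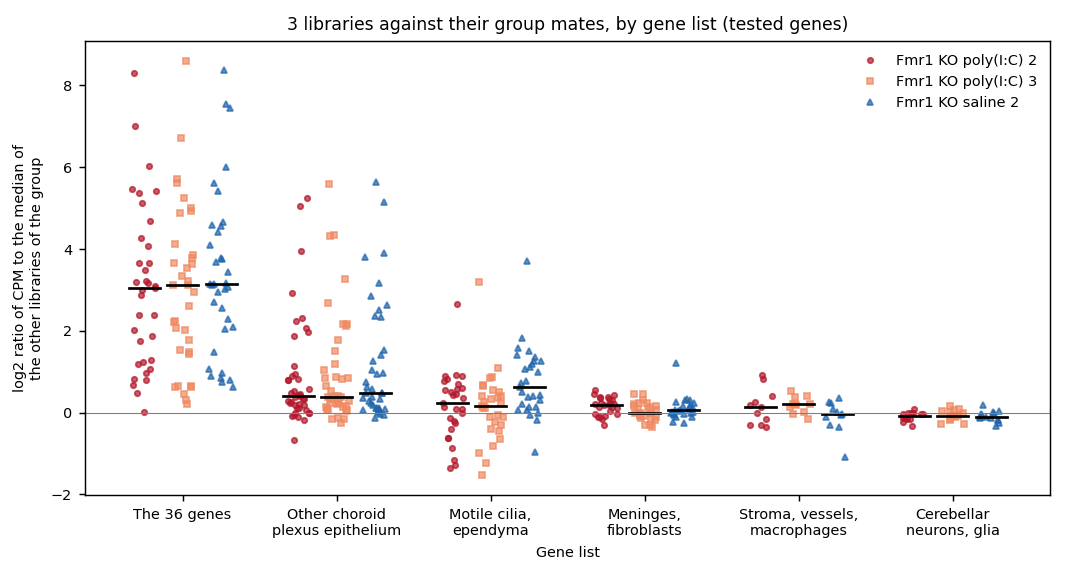
Each point is a tested gene, its height the log2 ratio of CPM in a high library to the median of the lower libraries of the same group, and black bars are medians. The tested choroid plexus genes reach above 8 on the log2 scale with medians near 3, while meninges, stroma and cerebellar genes stay around 0.

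Regional genes had too few counts for a test, apart from Meis1. Emx2, a forebrain factor, had 1 count over all 12 libraries. Hox genes of the hindbrain had at most 8 counts in a library. Whether the epithelial RNA came from a given ventricle was not tested.

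Across these 6 lists edgeR called 6, 0 and 15 of 121 tested genes in poly(I:C) against saline knockout, saline knockout against FVB, and poly(I:C) knockout against FVB, beside 2.87%, 1.53% and 7.05% of all tested genes. In the comparison with 0 calls 13 genes were at an unadjusted p under 0.05, DESeq2 called 2 and limma-voom 0. Over the 3 comparisons in that order, the median log2 fold change was -0.046, 0.23 and 0.13 for the other choroid plexus genes, -0.00095, 0.37 and 0.44 for motile cilia, -0.15, -0.072 and -0.28 for meninges, 0.0078, -0.12 and 0.076 for stroma, and -0.043, 0.019 and -0.0039 for cerebellar cells. In the meninges list 4 genes fell in poly(I:C) against saline knockout: Slc22a6, an organic anion transporter, by 0.68 (edgeR adjusted p 0.0150), Crabp2, a retinoic acid binding protein, by 0.94, Slc47a1, a cation exporter, by 0.92, and Islr by 0.51. Slc22a6 had 8.59, 8.25, 6.57 and 5.73 CPM in poly(I:C) knockout libraries, 13.5, 10.8, 11.0 and 11.6 CPM in saline knockout libraries and 16.3, 12.7, 10.8 and 11.0 CPM in FVB libraries, and each poly(I:C) value was under each saline or FVB value. Against FVB, 5 meninges genes fell in the poly(I:C) knockout group, among them Slc22a6, Crabp2 and Slc47a1, and Cemip rose. Motile cilia gave 1 gene up in poly(I:C) against saline knockout, Dnah11, by 0.78, and 5 up in poly(I:C) knockout against FVB: Tppp3, Cfap126, Dynlrb2, Dnai1 and Tekt4. Lyve1, of border macrophages and lymphatic vessels, rose by 1.16 (SE 0.26; edgeR adjusted p 0.0104) in poly(I:C) knockout against FVB. Aqp4, the astrocyte water channel, fell by 0.36 against saline knockout and by 0.33 against FVB in the poly(I:C) group. Without the 3 high libraries, edgeR called 1, 0 and 5 of 120 list genes, beside 1.09%, 1.16% and 2.81% of all tested genes, with 16 at an unadjusted p under 0.05 in the comparison with 0 calls. Tekt4, a protein of cilia and flagella, was the one called in poly(I:C) against saline knockout. Against FVB, Stra6, Tppp3, Tekt4 and Slc22a6 were called in both settings, and Bmp6, named after its value was seen, was called in the 9 low libraries alone, where it fell by 0.54. Of the 21 calls made with all 12 libraries 4 were also made in the 9, which are fewer libraries, and all 21 log2 fold changes kept their direction. In 18 the value moved by under 1.5 times: for instance that of Lyve1 against FVB was 1.20 in the 9 libraries and 1.16 in all 12, and that of Crabp2 was -1.10 in the 9 and -0.99 in all 12. The 3 that shrank by more, named after their values were seen, were Aqp4 against saline knockout (-0.22 in the 9), Asgr1 against FVB (-0.26 in the 9 and -0.41 in all 12) and Dnai1 against FVB (0.39 in the 9 and 0.59 in all 12).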

How the data were processed

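Bulk RNA-seq libraries of mouse cerebellar crus 1 were used, 4 in each of 3 groups taken from the labels. The authors deposited whole-number read counts per Ensembl gene. Per the submitters' processing notes these came from Trim Galore, HISAT2 and featureCounts on GRCm39; per the labels' protocols, RNA was purified with TRIzol, treated with DNase I and made into libraries with a TruSeq kit. The sources used here do not give the strand setting, read length or annotation release, so overlapping genes and near-identical copies are counted with some uncertainty. Symbols were matched by Ensembl ID for 52029 of 57010 genes, which held 99.4% of counts. Between 58.7% and 64.9% of counts from 1 to 10 were even. Counting both reads of a pair would give even counts; the sources used here do not say whether this was done and it was not tested, and counts, with the chi-square below, would then overstate the number of independent fragments.

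Genes passing edgeR's filterByExpr (minimum count 10, total 15) were TMM-scaled. EdgeR 4.0.16 under R 4.3.3 then fitted a robust quasi-likelihood model of 3 group means (9 residual degrees of freedom, BCV 0.152). Contrasts were adjusted by Benjamini-Hochberg over all 19166 tested genes, and an adjusted p under 0.05 is a call. SE was obtained from the log2 fold change and its F value. The scripts were tested on simulated data. No pair of libraries in a group agreed within sampling noise (the smallest chi-square was 12.2 per gene).

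The members, the 6 other lists (136 genes, all in the table) and the tests were chosen with earlier results of these data known. All 36 members are named; from other lists the 4 highest in mean CPM and up to 4 called per comparison by smallest p are named, and others are said to be chosen afterwards. Alternatives were RLE and upper-quartile scaling, no filter, at least 10 counts in 4 libraries, DESeq2 1.42.0, limma-voom 3.58.1, fits on 2 groups, a non-robust fit, a replicate block, a Ttr covariate and leaving out each library. The fit without the 3 libraries above 1000 CPM of Ttr and the ratios to Folr1 were added after seeing the data. Some genes of these lists are not reported here.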

Additional observations from a re-analysis of the deposited data

Results flagged for a closer look

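For each of the 36 genes in each of the 3 groups of 4 libraries, the gap of the highest or lowest library to its nearest neighbour was set against the range of the group. In 34 of 108 such groups the gap took more of the range than Dixon's 95% critical value for 4 samples allows, which chance passes in about 1 group of 20. In 28 of them the library set apart was saline knockout library 2, always above the other 3. Among secreted proteins and extracellular factors, its values were Ttr 4156 CPM, Enpp2 1792 CPM, Lbp 29.3 CPM, F5 28.5 CPM, Sostdc1 13.2 CPM and Col8a1 14.4 CPM. Among genes of water, ion and solute transport, its values were Aqp1 20.3 CPM, Kcne2 22.4 CPM, Kcnj13 6.20 CPM, Clic6 66.3 CPM, Slc4a5 34.4 CPM, Slc2a12 17.2 CPM, Trpv4 7.23 CPM, Abca4 17.2 CPM, Steap1 4.21 CPM, Tmem72 33.8 CPM and Cldn2 18.5 CPM. Among receptors and surface enzymes, its values were Folr1 32.9 CPM, Kl 81.8 CPM, Prlr 9.65 CPM, Ace 52.1 CPM and Car12 52.2 CPM. Among transcription factors, its values were Otx2 27.2 CPM and Msx1 11.8 CPM. Among epithelial and intracellular genes, its values were Krt8 3.15 CPM, Krt18 4.89 CPM, Calml4 9.32 CPM and Cab39l 70.3 CPM. The next library of the group was far lower, at 24.96 CPM for Ttr and 169.5 CPM for Enpp2, and nearest for Otx2, at 15.7 CPM. The other 6 were FVB libraries. FVB library 1 stood above its group for Sostdc1 (0.199 CPM, with the next at 0.0546 CPM), Kcne2 (0.341 CPM, with the next at 0.0811 CPM) and Trpv4 (1.34 CPM, with the next at 0.683 CPM), and below it for Otx2 (11.8 CPM, with the next at 14.4 CPM). FVB library 3 was high for Krt8 (0.243 CPM, with the next at 0.106 CPM) and FVB library 4 for Cab39l (42.5 CPM, with the next at 35.5 CPM). Counts of Sostdc1 in FVB libraries 1 to 4 were 7, 2, 2 and 2, and those of Kcne2 12, 2, 4 and 2. For Krt8 they were 3, 4, 12 and 3, so the flags of these genes in FVB rest on few counts. The genes share libraries, so these results are not independent. The list was drawn up with earlier results of these data known, so the 34 describe it and do not measure an excess over chance. In the poly(I:C) knockout group, where libraries 2 and 3 were both high, no library stood alone.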

How the results depend on the processing

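RLE and upper-quartile scaling, both other filters, limma-voom and fits on the 2 groups compared left 0 genes called in each comparison. Over these settings and comparisons 1.17% to 7.45% of all tested genes were called. Between poly(I:C) knockout and FVB, DESeq2 called 4, beside 3.34% of 57010 genes. The non-robust fit called 1 (Lbp) and the Ttr covariate 3 there, beside 6.87% and 5.24% of all tested genes. Without the 3 libraries highest in Ttr, 3 were called there and 1 between poly(I:C) and saline knockout, beside 2.81% and 1.09%. Leaving out 1 library at a time gave 0 to 1 calls between poly(I:C) knockout and FVB and 0 in the others. The calls were Lbp without saline knockout library 2 (2.63, adjusted p 0.0242 by edgeR) and Foxj1 without poly(I:C) knockout library 4 (0.82, adjusted p 0.0293 by edgeR). In these 2 fits 6.53% and 5.14% of all tested genes were called. With 1 library left out, the median log2 fold change ran between -0.13 and 2.14 for poly(I:C) against saline knockout, -0.085 and 1.99 for saline knockout against FVB, and 1.56 and 2.44 for poly(I:C) knockout against FVB. With limma-voom the 3 medians were 0.46, 0.72 and 1.25, beside 0.26, 1.69 and 1.98 with edgeR. With the Ttr covariate the last 2 medians were 0.28 and 0.39, and without the 3 libraries -0.098 and -0.29. In poly(I:C) knockout against FVB, 32 of 35 genes were above 0 with all 12 libraries and 10 of 34 without the 3. Among the genes called without the 3 libraries, Enpp2 (-0.43) and Car12 (-1.29) had turned direction. With the covariate the called gene Car12 had also turned (-0.84). The labels do not say whether same-numbered libraries had more in common than the number. Their correlations between the knockout groups were 0.107, 0.145, -0.0987 and -0.0687. A fit with the replicate number as a block gave 0 calls in all 3 comparisons, beside 2.94%, 1.43% and 6.9% of all tested genes, and medians of 0.46, 0.86 and 1.49. With 3 libraries carrying most counts of these genes, the other 9 limit what can be seen for the low ones, such as Krt8 and Sostdc1.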
